A study of Homo sapiens with 6 samples.

Results

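The 37 genes of the mitochondrial genome were examined in the core and the margin of MDA-MB-231 xenograft tumors. They were selected by symbol, as every gene of the expression matrix whose name starts with MT-, and they were 37 of 60671 annotated genes and of 60930 features in all. By class they were 13 mRNA genes, 2 rRNA genes and 22 tRNA genes. The question of the study was how gene expression differs between the zones of a tumor, and the comparison made here was the tumor core (TC) against the tumor margin (TM).

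RNA had been sequenced from 3 TC and 3 TM samples. The tumors were grown from MDA-MB-231, a line of human breast cancer cells without hormone receptors or HER2 amplification (triple-negative) that is labelled wild type in all samples. It was cultured in DMEM with fetal bovine serum and then injected orthotopically, in Matrigel, into the mammary fat pads (the fourth pair) of female NSG mice aged 6 to 8 weeks. NSG mice lack T, B and NK cells but keep fibroblasts, vessels, muscle, fat and myeloid cells, so a piece of tumor can hold host tissue. Genotype, cell line and treatment were thus shared by all 6 samples, and the zone was the only labelled difference. The study names 3 mice per group, and whether a TC and a TM sample came from the same mouse was not given in the sources used here.

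The mitochondrial genome is a small circle of double-stranded DNA present in many copies per cell. Both of its strands are transcribed over nearly their whole length into long precursors, and the tRNAs that lie between most of the other genes are cut out by RNase P and ELAC2, which frees the mRNAs and rRNAs. Most of the mRNAs are then polyadenylated, in several cases completing their own stop codon. The mRNAs are translated inside the organelle into core subunits of the respiratory complexes I, III and IV and of the ATP synthase (complex V). All other subunits, and all proteins that copy, transcribe and translate this genome, come from nuclear genes. The 2 strands differ in base composition and are called heavy and light. Here a gene is called a heavy-strand gene when the heavy strand is its template.

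All values are TPM as deposited by the authors, that is transcript abundances corrected for transcript length and brought to a common total per sample, so that levels of different genes can be set side by side per unit of length. TPM keeps no sequencing depth, and precision could be judged only from the spread between replicates. Differences are TC minus TM on the scale of log2(TPM + 1), fitted with limma over the 13861 genes that reached 1 TPM in 3 samples or more. The Benjamini-Hochberg method was used for adjustment, and calls were made below an adjusted p-value of 0.05. Over all genes 19 were called, which is 0.137% of those tested. The columns summed to 1000000 TPM in 5 samples and to 994380 TPM in TM replicate 3.

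Markers of the cell line were compared with the label. VIM, abundant in this line, was between 3797 and 5283 TPM, while the hormone receptor genes ESR1 and PGR were at most 0.13 and 0.22 TPM. ERBB2, which encodes HER2, was present at 22.3 to 24.1 TPM in TC and 30.8 to 40.7 TPM in TM, without overlap. TM replicates 1 and 2 stood apart from the other 4 samples in host markers. The summed level of 18 skeletal muscle markers (TNNT1, which was at 272 to 357 TPM in all samples, not counted) was 215.4 TPM in TM replicate 1 and 584 in TM replicate 2, against 3.64 in TM replicate 3 and 6.18 to 9.74 in TC. The sum of 10 fibroblast markers was 504 and 1028 TPM in TM replicates 1 and 2, against 113.4 in TM replicate 3 and 86.3 to 244.2 in TC. The collagen genes COL1A1, COL1A2 and COL3A1 made up most of it in TM replicates 1 and 2, with COL1A1 alone at 334.5 and 698.2 TPM. FBN1 was at 18.8 to 27.3 TPM in all samples, and DCN, LUM, PDGFRA and THY1 were at most 4.82 TPM in any. Summed endothelial (8 genes), macrophage (8), adipocyte (6) and erythroid (6) markers reached at most 9.49, 109.6, 1.09 and 6.93 TPM in any sample. Mitochondrial differences are therefore given below also without TM replicates 1 and 2, for the median of the mRNA genes and for each member that moved by more than 1.5 times. Their TM side is then 1 sample, which is assumed to vary like the TC samples.

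The mitochondrial genes are packed so closely that neighbors share bases, and this bears on how reads can be assigned to them. The following stretches, in GENCODE v29 on GRCh38, are shown because MT-ATP8 and MT-ATP6, and MT-ND4L and MT-ND4, lie on common mRNAs and overlap in different reading frames. The capitals mark the shared bases, 46 in the first pair and 7 in the second. The stretches are the whole of MT-ATP8 (chrM:8366-8572, plus strand), the start of MT-ATP6 (chrM:8527-8606), the end of MT-ND4L (chrM:10717-10766) and the start of MT-ND4 (chrM:10760-10809).
MT-ATP8: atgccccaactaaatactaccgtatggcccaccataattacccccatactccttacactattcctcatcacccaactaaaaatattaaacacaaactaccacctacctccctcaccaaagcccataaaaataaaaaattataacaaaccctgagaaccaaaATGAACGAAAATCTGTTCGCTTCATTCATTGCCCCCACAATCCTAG
MT-ATP6: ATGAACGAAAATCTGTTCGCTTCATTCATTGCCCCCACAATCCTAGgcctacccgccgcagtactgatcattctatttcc
MT-ND4L: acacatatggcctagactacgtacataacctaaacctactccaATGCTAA
MT-ND4: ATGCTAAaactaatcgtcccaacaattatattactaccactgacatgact

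A read that covers the shared bases overlaps both genes of a pair, and how the authors' counting divided such reads was not given in the sources used here. Each of these 4 values is therefore uncertain to that extent. MT-ATP6 and MT-CO3 share 1 further base, and among the tRNA genes MT-TC and MT-TY share 1, while MT-TI and MT-TQ, on opposite strands, share 3.

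Strand and gene ends differ within the set. MT-ND6 is the only mRNA gene of the light strand, and its neighbor MT-ND5 lies on the other strand. The first 100 bases of both, each read 5′ to 3′ along its own mRNA, are shown to make the difference in composition visible, with each G in capitals: MT-ND6 from the minus strand of chrM:14574-14673 and MT-ND5 from the plus strand of chrM:12337-12436.
MT-ND6: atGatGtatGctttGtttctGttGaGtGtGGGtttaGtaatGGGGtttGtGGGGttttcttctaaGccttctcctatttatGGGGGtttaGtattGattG
MT-ND5: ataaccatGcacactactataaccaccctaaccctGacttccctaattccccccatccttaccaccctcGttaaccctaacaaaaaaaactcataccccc

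These stretches held 30 G in MT-ND6 and 3 in MT-ND5. Over the whole gene, G made up 35.6% of MT-ND6 and C made up 7.05%, whereas in the 12 heavy-strand mRNA genes G ranged from 6.28% (MT-ATP8) to 16.2% (MT-CO1) and C from 29.5% (MT-ND3) to 35.98% (MT-ND1). The methods name an orientation mode for the alignment, but whether reads were counted by strand was not stated, and without that reads of MT-ND6 and of the heavy-strand precursor that runs across it cannot be told apart. The values of MT-ND6 are uncertain for that reason.

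The annotated 3′ ends also differ. Of the 13 mRNA genes 6 end within a codon (MT-ND1 after TA, and MT-ND2, MT-CO3, MT-ND3, MT-ND4 and MT-CYB after T), so that the stop codon is completed by the poly(A) tail, and 7 end on a full codon. The last 30 bases of 3 genes show a single final T in MT-CO3 (chrM:9961-9990) and MT-CYB (chrM:15858-15887) and the AGA of MT-CO1 (chrM:7416-7445), in capitals.
MT-CO3: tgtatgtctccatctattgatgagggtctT
MT-CYB: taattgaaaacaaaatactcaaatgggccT
MT-CO1: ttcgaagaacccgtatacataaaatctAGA

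The smallest members are the tRNA genes, 59 to 75 nt long, of which 14 are heavy-strand and 8 light-strand genes. MT-TV, the valine tRNA between the 2 rRNA genes (chrM:1602-1670, plus strand), is shown as an example of the length that these libraries did not register.
MT-TV: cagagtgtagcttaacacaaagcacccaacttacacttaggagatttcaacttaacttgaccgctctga

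All 22 tRNA genes were listed at 0 TPM in all 6 samples. They are MT-TF, MT-TV, MT-TL1, MT-TI, MT-TM, MT-TW, MT-TD, MT-TK, MT-TG, MT-TR, MT-TH, MT-TS2, MT-TL2 and MT-TT for the heavy strand, and MT-TQ, MT-TA, MT-TN, MT-TC, MT-TY, MT-TS1, MT-TE and MT-TP for the light strand. The libraries had been made with a TruSeq RNA kit and selected for fragments several times longer than a tRNA, so a listed value of 0 gives no measure of tRNA abundance, and none of the 22 could be tested.

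**Figure D1:**
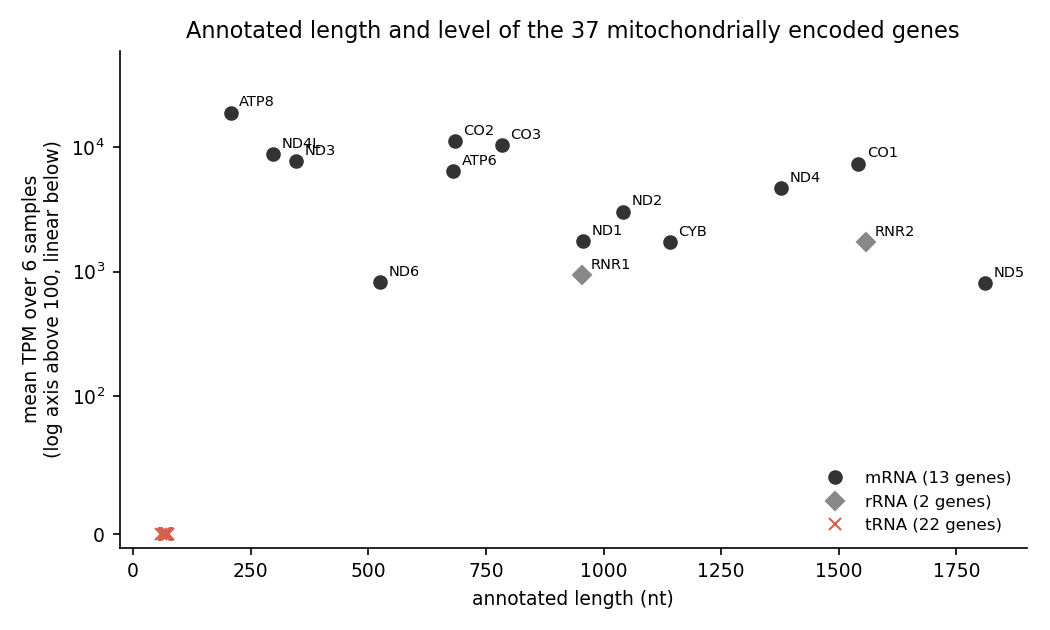
Mean TPM over the 6 samples (y axis, logarithmic above 100 and linear below) against the annotated length in nucleotides (x axis) of all 37 mitochondrially encoded genes. Circles are mRNA genes, diamonds rRNA genes and crosses tRNA genes. The 22 tRNA genes lie together at 0 TPM and 59 to 75 nt, and the shortest mRNA gene, MT-ATP8 with 207 nt, is the highest point.

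The 13 mRNA genes were among the most abundant transcripts of the tumors and were all lower on average in TC than in TM. Their summed level was 84683, 58531 and 60808 TPM in TC replicates 1 to 3 and 89772, 103170 and 106690 TPM in TM replicates 1 to 3. In TPM as deposited, no TC sample reached the lowest TM sample, but TC replicate 1 came close to it. That sample had the highest value of the TC group in 13 of 13 mRNA genes. The median-of-ratios factors used below were 1.02 for TC replicate 1 and 1.15 for TM replicate 1. After division by them the sum of TC replicate 1 exceeded that of TM replicate 1, so the groups overlapped. In bulk tissue, fewer cells rich in mitochondria and less mitochondrial RNA per cell cannot be told apart.

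Gene by gene, limma called 0 of the 15 members with signal (13 mRNA and 2 rRNA genes), with adjusted p-values between 0.142 and 0.946, against 0.137% of all genes. At an unadjusted p-value under 0.05, 11 of 13 mRNA genes were lower in TC and 0 were higher, while 14.2% of all tested genes were lower by that measure. All 3 TC values lay below all 3 TM values in 10 of 13 mRNA genes, and in 18.9% of all tested genes. The reverse, all TC values above all TM values, held for 0 of 13 mRNA genes and for 3.28% of all tested genes. The log2 differences of the 13 genes ranged from -1.04 (MT-ND5) to -0.25 (MT-CO3), with a median of -0.62, whereas the median of all tested genes was -0.14. Other abundant genes had a positive median. Of 173 genes with a mean of at least 808 TPM, the level of the lowest mitochondrial mRNA, the 158 outside the mitochondrial genome had a median difference of 0.17. Cytosolic ribosomal protein genes, whose share of TPM was higher in all TC than in all TM samples, were not set apart in this median. The members are not independent of each other, since they are cut from common precursors.

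The counts depended on the scaling more than the direction did. Rescaling by median-of-ratios factors moved the median of all genes from -0.14 to 0.02 and that of the mRNA genes to -0.44, so that relative to all genes the mRNA median was -0.46 in place of -0.48. With that rescaling 2 mRNA genes, MT-ND4L and MT-ND5, kept an unadjusted p-value under 0.05 (all genes lower in TC: 7.65%), and the same 2 kept groups that did not overlap (all genes: 11.0%). With quantile normalization the counts were 9 (all genes 8.11%) and 7 (all genes 11.5%), and the mRNA median was -0.66 relative to all genes. The difference was below 0 for every mRNA gene in every one of the 16 alternative settings, 208 values in all, with a smallest limma adjusted p-value of 0.0988. These values are not independent, since all settings reuse the same 6 samples. Changes of the filter, the replicate block and the forms of limma without trend or robust leave the difference itself unchanged, so their signs could not differ.

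**Figure D2:**
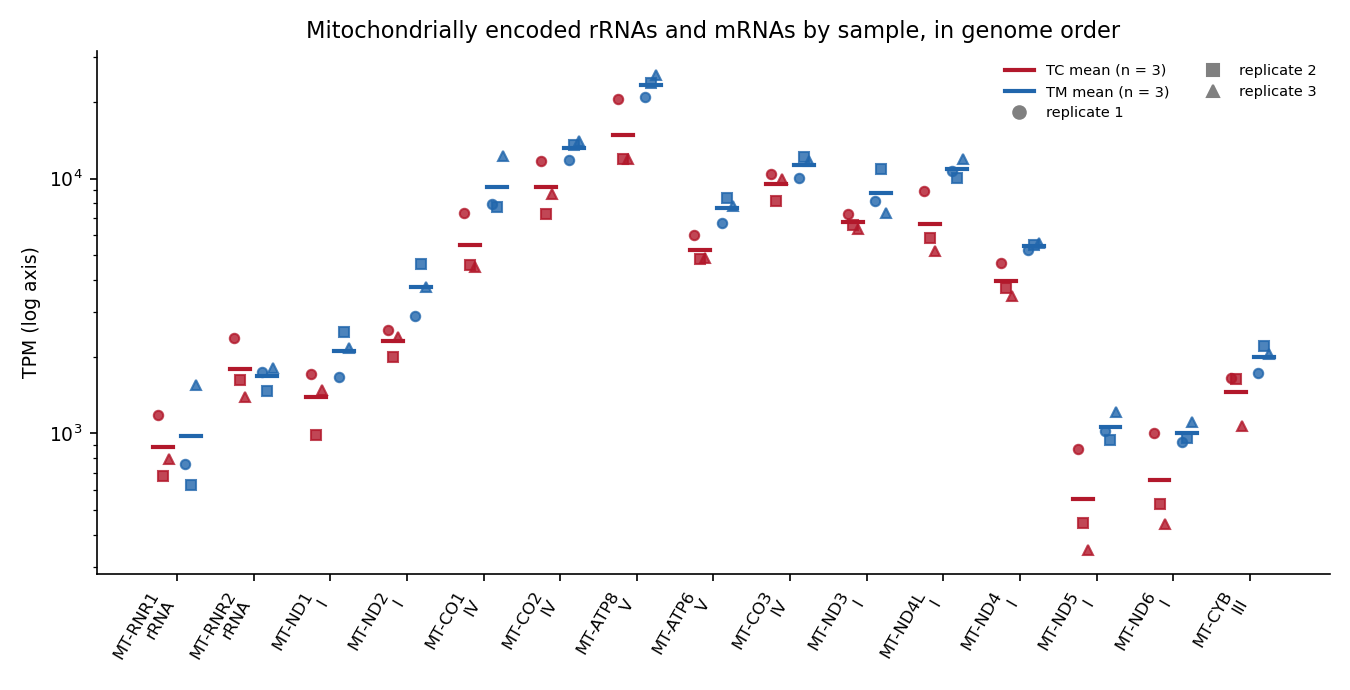
TPM on a logarithmic y axis of the 2 rRNA and 13 mRNA genes in genome order (x axis, with the respiratory complex under each name) in the 3 TC samples (red) and the 3 TM samples (blue). Symbols are replicates 1 to 3 and horizontal lines are group means. TC replicate 1 is the highest TC point in all 13 mRNA genes, and all TC points lie below all TM points in 10 of them.

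Complex I takes electrons from NADH and pumps protons, and 7 of the mRNA genes encode subunits of its membrane arm. Their summed level was 26955, 20093 and 19708 TPM in the TC samples and 30578, 35434 and 33205 TPM in the TM samples, which do not overlap. MT-ND1 (chrM:3307-4262), at the junction with the arm that binds NADH, was at 1705, 983 and 1486 TPM in TC and at 1660, 2505 and 2168 TPM in TM. TC replicate 1 lay above TM replicate 1, so the groups overlapped, and the log2 difference was -0.62 (SE 0.23, limma adjusted p = 0.246), or -0.39 without TC replicate 2.

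MT-ND2 (chrM:4470-5511), one of the 3 antiporter-like subunits together with MT-ND4 and MT-ND5, was at 2549, 1991 and 2393 TPM in TC and at 2899, 4626 and 3766 TPM in TM. The groups were apart, and the log2 difference of -0.69 (SE 0.19) had the smallest limma adjusted p-value of all members, 0.142. MT-ND4 (chrM:10760-12137) was at 4680, 3712 and 3477 TPM in TC and at 5225, 5491 and 5603 TPM in TM. Its TM samples varied least of all members (CV 3.57%), the groups did not overlap, and the log2 difference was -0.47 (SE 0.15, limma adjusted p = 0.187).

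MT-ND5 (chrM:12337-14148), the longest member with 1812 nt and the least abundant mRNA by its mean over the 6 samples, showed the largest difference of the set. It was at 869, 446 and 350 TPM in TC and at 1022, 943 and 1218 TPM in TM. TC replicate 1 was far above the other TC samples and still below every TM sample. The log2 difference was -1.04 (SE 0.30, limma adjusted p = 0.149), and it was -1.42 without TC replicate 1.

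Among the small complex I subunits, MT-ND4L (chrM:10470-10766) was at 8916, 5830 and 5199 TPM in TC and at 10700, 10035 and 11987 TPM in TM. The groups were apart, and the log2 difference was -0.75 (SE 0.22, limma adjusted p = 0.148). MT-ND3 (chrM:10059-10404) was at 7232, 6602 and 6361 TPM in TC and at 8145, 10869 and 7351 TPM in TM. Its groups were separated by a gap that was narrow against the spread in TM, and the log2 difference was -0.37 (SE 0.18, limma adjusted p = 0.375). It was -0.20 without TM replicate 2 and -0.13 without TM replicates 1 and 2.

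MT-ND6 (chrM:14149-14673, minus strand) was at 1003, 529 and 442 TPM in TC and at 926, 964 and 1111 TPM in TM. TC replicate 1 lay between TM replicates 2 and 3 while the other TC samples were far lower, so the groups overlapped. Its log2 difference was -0.69 (SE 0.28, limma adjusted p = 0.268), and it ran to -1.04 without TC replicate 1 and to -0.45 without TC replicate 3.

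Complex III hands electrons from ubiquinol to cytochrome c, and MT-CYB (chrM:14747-15887), cytochrome b, is its one subunit from this genome. It was at 1650, 1634 and 1073 TPM in TC and at 1734, 2211 and 2053 TPM in TM. The highest TC and the lowest TM sample differed by less than the SD of either group, 328.5 and 243.2 TPM, although the groups did not overlap. The log2 difference was -0.48 (SE 0.19, limma adjusted p = 0.274), and without TC replicate 3 it was -0.28.

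Complex IV, cytochrome c oxidase, passes the electrons to oxygen, and its 3 catalytic core subunits are mitochondrially encoded. MT-CO1 (chrM:5904-7445), which binds the heme and copper site where oxygen is reduced, was at 7358, 4599 and 4498 TPM in TC and at 7920, 7728 and 12278 TPM in TM. TM replicate 3 was far above the other TM samples. The groups did not overlap. The log2 difference was -0.77 (SE 0.26, limma adjusted p = 0.194), and without TM replicates 1 and 2 it was -1.20.

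MT-CO2 (chrM:7586-8269), which takes electrons from cytochrome c, was at 11731, 7259 and 8731 TPM in TC and at 11855, 13594 and 14017 TPM in TM. The groups were kept apart by a narrow gap between TC replicate 1 and TM replicate 1, and the log2 difference was -0.53 (SE 0.20, limma adjusted p = 0.248). MT-CO3 (chrM:9207-9990), the third core subunit, was at 10458, 8157 and 9968 TPM in TC and at 10079, 12185 and 11709 TPM in TM. These groups overlapped, and its log2 difference of -0.25 (SE 0.17, limma adjusted p = 0.522) was the smallest among the mRNA genes and became -0.07 after median-of-ratios rescaling, -0.11 after quantile normalization and -0.145 without TC replicate 2.

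The ATP synthase, complex V, uses the proton gradient to make ATP, and 2 subunits of its membrane part are encoded here. MT-ATP8 (chrM:8366-8572) was the highest member by TPM, at 20540, 11950 and 11939 TPM in TC and at 20911, 23631 and 25603 TPM in TM. TC replicate 1 was close to TM replicate 1, and TC replicates 2 and 3 were at about the same lower level. The log2 difference was -0.70 (SE 0.24, limma adjusted p = 0.203), and it was -0.96 without TC replicate 1 and -0.415 after quantile normalization.

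MT-ATP6 (chrM:8527-9207), which forms the proton channel with the rotor ring, was at 5991, 4840 and 4890 TPM in TC and at 6696, 8388 and 7825 TPM in TM. No sample of either group came within the range of the other, and the log2 difference was -0.54 (SE 0.16, limma adjusted p = 0.151). MT-ATP8 and MT-ATP6 are read from one mRNA, yet MT-ATP8 was listed at 3.43, 2.47 and 2.44 times the TPM of MT-ATP6 in TC and at 3.12, 2.82 and 3.27 times in TM. MT-ND4L and MT-ND4 also share an mRNA, and their ratio was 1.91, 1.57 and 1.495 in the TC samples and 2.05, 1.83 and 2.14 in the TM samples. Both pairs of groups overlapped. In each pair the shorter gene had the higher TPM, 207 against 681 nt and 297 against 1378 nt, so the ratio of genes on a common molecule was not 1, and the part of length correction and of read assignment in this was not tested.

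**Figure D3:**
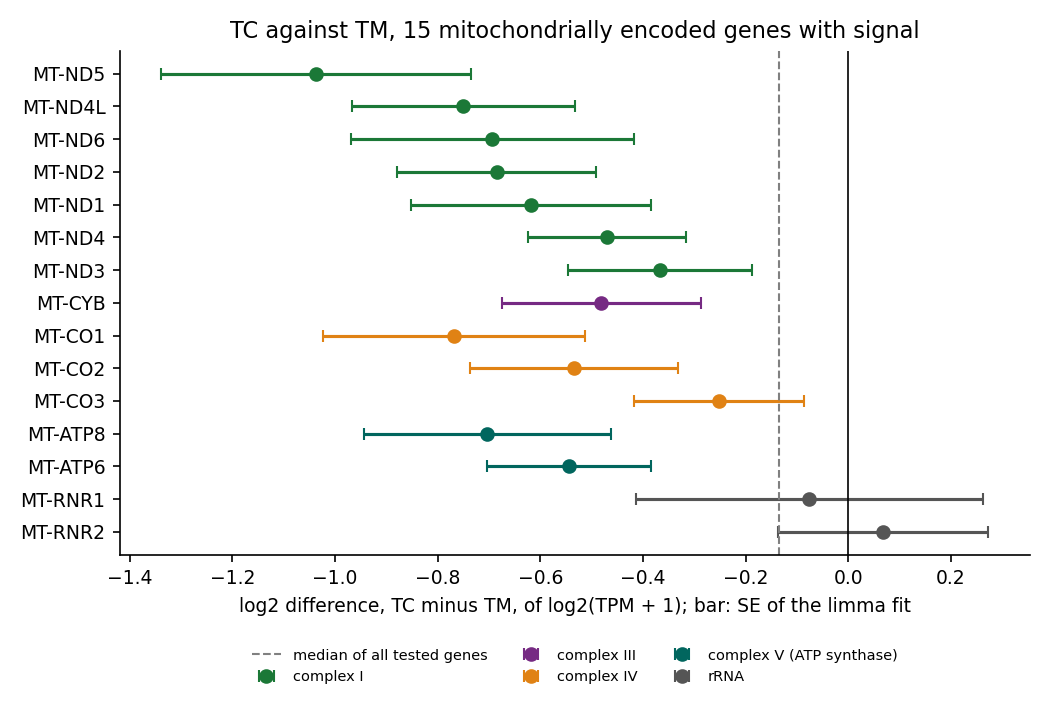
Log2 difference of log2(TPM + 1), TC minus TM (x axis), for the 13 mRNA and 2 rRNA genes (y axis), colored by respiratory complex and ordered by difference within each. Bars are the SE of the limma fit (3 against 3 samples), the solid line is 0 and the dashed line the median of all 13861 tested genes, -0.14. The 13 mRNA genes lie left of the dashed line and the 2 rRNA genes right of it.

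The 2 rRNA genes, which form the small (MT-RNR1) and large (MT-RNR2) subunit of the mitochondrial ribosome, had differences smaller than their errors with all 6 samples fitted. MT-RNR1, the 12S rRNA (chrM:648-1601), was at 1180, 680 and 791 TPM in TC and at 760, 630 and 1554 TPM in TM. The groups overlapped widely, with TM replicate 3 far above the other TM samples, and the log2 difference was -0.08 (SE 0.34, limma adjusted p = 0.946). It was 0.31 without TM replicate 3 and 0.10 after median-of-ratios rescaling. With TM replicate 3 as the only margin sample it was -0.85, as large as the differences of the mRNA genes.

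MT-RNR2, the 16S rRNA (chrM:1671-3229), was at 2376, 1617 and 1394 TPM in TC and at 1749, 1469 and 1809 TPM in TM. The groups overlapped here too, and the difference on the log2 scale was 0.07 (SE 0.20, limma adjusted p = 0.910), which was -0.15 without TC replicate 1, -0.08 after quantile normalization and -0.05 without TM replicates 1 and 2. These rRNAs were less abundant per length than most mRNAs. How much of them the library kit retained was not given in the sources used here, so their level against the mRNAs is that of these libraries only.

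Ratios among members do not change when a sample is rescaled by a single factor, as by median-of-ratios, although quantile normalization can change them. The summed TPM of the 13 mRNA genes was 23.8, 25.5 and 27.8 times that of the 2 rRNA genes in TC and 35.8, 49.2 and 31.7 times in TM. The means were 25.7 ± 2.02 and 38.9 ± 9.12 (SD, n = 3), the groups did not overlap, and TM replicates 1 to 3 spread more widely than TC. The highest of these ratios was in TM replicate 2, which had the largest sums of muscle and fibroblast markers. The lowest TM ratio was in TM replicate 3, which had the smallest of these sums among the TM samples. The part of host tissue in the ratio was not tested. As a share of all mitochondrial TPM, the rRNAs made up 4.03%, 3.78% and 3.47% in TC and 2.72%, 1.99% and 3.06% in TM.

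Between the complexes the make-up was alike. Complex I mRNAs were 32.9% ± 1.31 (SD, n = 3) of the mRNA sum in TC and 33.2% ± 1.78 in TM. Complex III was 2.17% ± 0.548 and 1.999% ± 0.125, complex IV 35.8% ± 2.11 and 33.8% ± 1.64, and complex V 29.2% ± 1.89 and 31.0% ± 0.289. The groups overlapped for each of the 4 complexes. In TPM as deposited, by contrast, each of the 4 sums was lower in all TC samples than in all TM samples. After median-of-ratios rescaling TC replicate 1 exceeded TM replicate 1 in the sums of complexes III, IV and V.

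**Figure D4:**
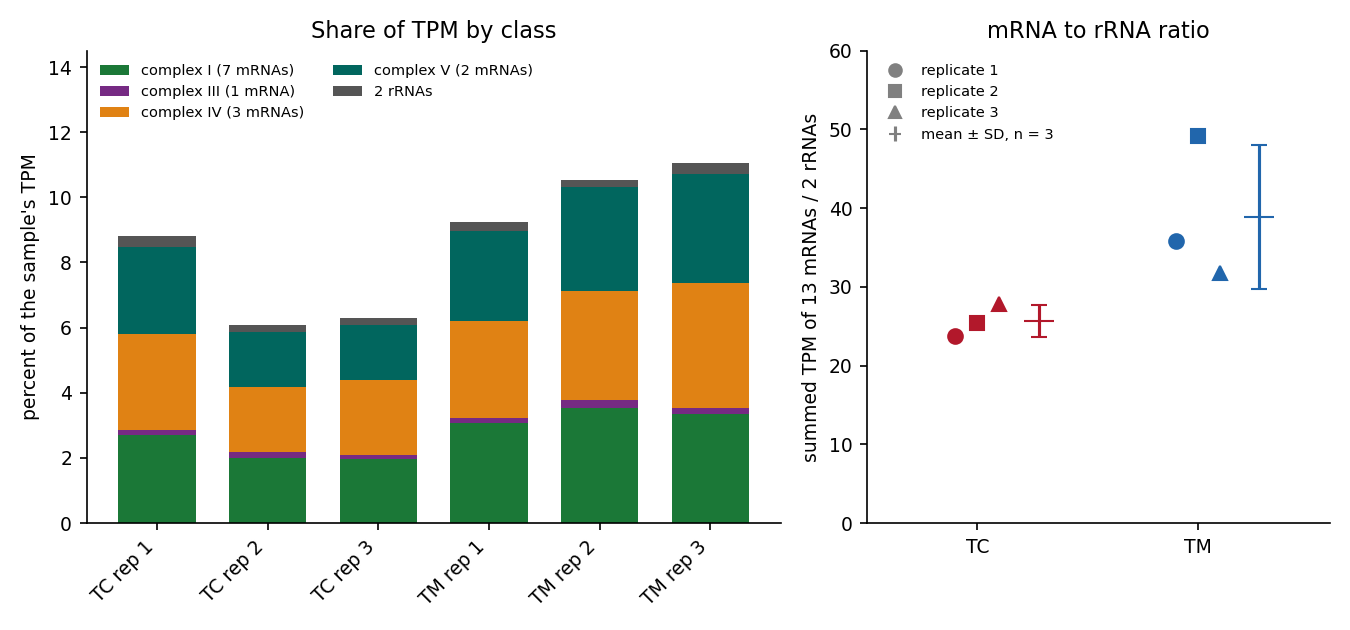
Left, percent of each sample's total TPM (y axis) taken by the mitochondrial mRNAs of complexes I, III, IV and V and by the 2 rRNAs, stacked, for the 6 samples (x axis). Right, summed TPM of the 13 mRNA genes divided by that of the 2 rRNA genes in each sample, with the mean and SD (n = 3) beside the points. The ratio is 23.8 to 27.8 in TC and 31.7 to 49.2 in TM.

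Taken one at a time against the mRNA sum, 12 of 13 mRNA genes overlapped between the groups, and MT-CO3 did not. It made up 12.3%, 13.9% and 16.4% of the mRNA sum in TC and 11.2%, 11.8% and 11.0% in TM, a mean of 14.2% ± 2.04 against 11.3% ± 0.429 (SD, n = 3). MT-CO3 was thus the mRNA with the smallest difference on the TPM scale and the one whose share was larger in all TC samples. Across strands the ratio of MT-ND6 to the 12 heavy-strand mRNAs was 1.20%, 0.912% and 0.732% in the TC samples and 1.04%, 0.943% and 1.05% in the TM samples, which overlap.

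Of 6 ratios between single members that were looked at, only MT-ND6 over MT-ND5 had groups that did not overlap. Its values were 1.15, 1.19 and 1.26 for TC and 0.907, 1.02 and 0.912 for TM, so that MT-ND6 exceeded MT-ND5 in every TC sample and in TM replicate 2. The ratios of MT-RNR1 to MT-RNR2 (0.421 to 0.567 in TC, 0.429 to 0.859 in TM), MT-CO1 to MT-CO3 (0.451 to 0.704, 0.634 to 1.05) and MT-ND5 to MT-CO3 (0.0351 to 0.0831, 0.0774 to 0.104) overlapped, as did the pairs on common mRNAs given above. No test was made of these ratios, since they were chosen with results known.

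The spread within the groups was unequal. The CV of the mRNA genes ran from 6.68% to 49.8% in TC and from 3.57% to 27.7% in TM, and it was larger in TC in 11 of 13 genes. The largest was that of MT-ND5 in TC, where TC replicate 1 was the highest sample as in every mRNA gene. Without TC replicate 1 the median difference of the 13 genes was -0.76.

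Nuclear copies of mitochondrial genes, pseudogenes that can share reads with them, were mostly without signal. Of 404 annotated copies 357 were listed at 0 in all samples, and 2 had a mean of at least 10 TPM. MTATP6P1 (chr1:633696-634376), 98.5% identical to MT-ATP6 over 681 bases with a longest identical run of 141 bases, was at 562, 485 and 462 TPM in TC and at 661, 823 and 511 TPM in TM. Its groups overlapped, and its ratio to MT-ATP6 was 0.0937, 0.1001 and 0.0945 in the TC samples and 0.0988, 0.0981 and 0.0653 in the TM samples. MTCO1P12 (chr1:631074-632616), 98.7% identical to MT-CO1 over 1542 bases, was at 182, 95.9 and 93.0 TPM in TC and at 155.5, 163.5 and 139.9 TPM in TM, and its ratio to MT-CO1 was 0.0207 to 0.0247 in TC and 0.0114 to 0.0212 in TM. Reads of either copy and of its original cannot be separated where the sequences are identical. The summed level of all copies was between 573 and 1014 TPM per sample.

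The nuclear-encoded partners in the same complexes had differences on both sides of 0. Of 74 nuclear subunits of complexes I, III, IV and V, all tested, 0 were called by limma, 10 had an unadjusted p-value under 0.05 and were higher in TC, and 2 were lower, against 1.93% and 14.2% of all genes. The median log2 difference was 0.14 over the 74 genes, with 55 above 0 and 19 below. By complex the nuclear median was 0.11 for complex I (37 genes), 0.02 for complex III (9), 0.19 for complex IV (11) and 0.15 for complex V (17), beside mitochondrial medians of -0.69, -0.48, -0.53 and -0.62. The nuclear median was above 0 in each complex after quantile normalization and median-of-ratios rescaling, and for complex III it was -0.04 when TPM was recomputed without mitochondrial genes.

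Within each sample, the mean log2(TPM + 1) of the mitochondrial subunits minus that of the nuclear subunits was 4.64, 3.96 and 3.84 in the TC samples and 4.61, 4.97 and 5.09 in the TM samples. TC replicates 2 and 3 were below all TM samples, whereas TC replicate 1 lay just above TM replicate 1, so the groups overlapped. Within each complex, too, TC replicates 2 and 3 were below all TM samples and TC replicate 1 was above TM replicate 1. For complex I the difference was 4.43, 3.71 and 3.63 in the TC samples and 4.41, 4.76 and 4.89 in the TM samples, and for complex IV it was 4.94, 4.15 and 4.15 in the TC samples and 4.90, 5.18 and 5.38 in the TM samples.

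**Figure D5:**
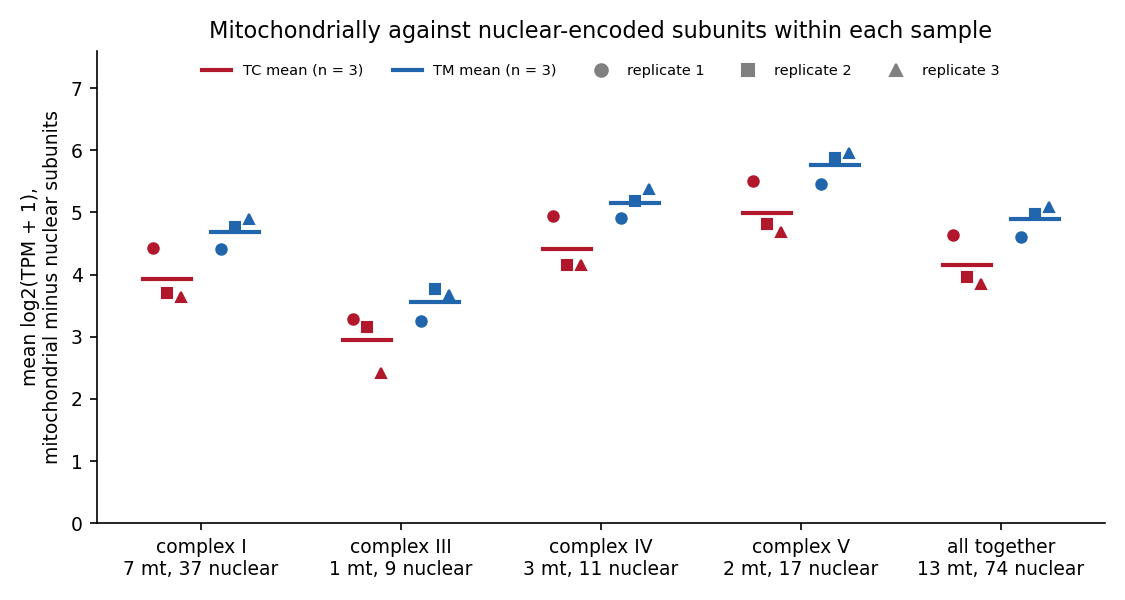
Mean log2(TPM + 1) of the mitochondrially encoded subunits minus that of the nuclear-encoded subunits of each respiratory complex and of all 4 together (y axis), in each TC (red) and TM (blue) sample. Horizontal lines are group means and symbols are replicates 1 to 3. TC replicates 2 and 3 lie below the 3 TM samples in each complex, while TC replicate 1 lies slightly above TM replicate 1.

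The nuclear genes that copy, transcribe, process and translate the mitochondrial genome were followed in 5 lists with 79 genes, of which 77 were tested. Limma called 0 of them. At an unadjusted p-value under 0.05, 16 were lower in TC and 0 higher, against 14.2% and 1.93% of all genes. The median difference was -0.21, beside -0.14 for all tested genes. After median-of-ratios rescaling these counts were 7 and 1 with a median of -0.05 (all genes: 7.65% lower, median 0.02). After quantile normalization they were 9 and 0 with a median of -0.02 (all genes: 8.11% lower, median 0.01).

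Among the transcription factors proper the groups overlapped in each named gene. POLRMT, the mitochondrial RNA polymerase, was at 35.8, 40.6 and 39.0 TPM in TC and at 61.6, 53.1 and 36.2 TPM in TM (log2 difference -0.35, SE 0.20, limma adjusted p = 0.459), with -0.19 without TM replicate 1 and -0.56 without TM replicate 3. TFAM, which packages the genome and starts transcription, was at 28.4, 27.7 and 30.3 TPM in TC and at 39.3, 34.4 and 19.0 TPM in TM (log2 difference -0.04, SE 0.25, limma adjusted p = 0.969). In both genes, and in the initiation factor TFB2M (log2 difference -0.21, SE 0.21, limma adjusted p = 0.683), TM replicate 3 was the lowest TM sample although its mitochondrial mRNA sum was the highest. With TM replicate 3 as the only margin sample the differences were 0.08, 0.58 and 0.18.

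The same list of 17 genes for transcription and replication held 3 genes with an unadjusted p-value under 0.05. All 3 were lower in TC, as were 14.2% of all genes. The list held 2 such genes after median-of-ratios rescaling (all genes: 7.65%) and 1 after quantile normalization (all genes: 8.11%). POLG, the catalytic subunit of the mitochondrial DNA polymerase, was at 27.0, 24.1 and 27.0 TPM in TC and at 44.9, 42.4 and 40.6 TPM in TM. The groups were well apart. The log2 difference was -0.69 (SE 0.14, limma adjusted p = 0.0844). Its accessory subunit POLG2 (log2 difference -0.64) and MTERF4 (-0.44), which acts in ribosome assembly, were also lower in all TC samples. So were 18.9% of all tested genes. For genes named by their p-value in these lists, groups that do not overlap add no evidence, as both rest on the same values.

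Of 22 genes for processing, polyadenylation, stability and decay, 5 had an unadjusted p-value under 0.05. All 5 were lower in TC, beside 14.2% of all genes by that measure. After median-of-ratios rescaling the counts were 0 lower and 1 higher (all genes lower: 7.65%), and after quantile normalization 2 lower and 0 higher (8.11%). ELAC2, which cuts tRNAs free at their 3′ ends, was at 44.3, 44.1 and 55.4 TPM in TC and at 75.8, 67.1 and 65.7 TPM in TM (log2 difference -0.53, SE 0.15, limma adjusted p = 0.136), without overlap. PTCD1 (-0.59) and TBRG4 (-0.50), RNA-binding proteins of the organelle, were the others with the largest differences, beside FASTK and FASTKD5. LRPPRC and SLIRP form the complex that stabilizes mitochondrial mRNAs. LRPPRC was at 30.7, 23.4 and 24.8 TPM in TC and at 35.5, 27.7 and 46.2 TPM in TM, and SLIRP at 240.4, 204.5 and 327.0 TPM in TC and at 204.7, 204.3 and 200.3 TPM in TM. Their log2 differences were -0.44 and 0.31 with limma adjusted p-values of 0.365 and 0.436, and both overlapped between the groups. Without TM replicate 3 the difference of LRPPRC was -0.255 (-0.80 with it as the only margin sample), and without TC replicate 3 that of SLIRP was 0.13. The poly(A) polymerase MTPAP (log2 difference -0.11, SE 0.33) and the exonuclease PNPT1 (-0.21, SE 0.22) had differences smaller than their errors.

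The list of 21 genes that modify mitochondrial rRNA and tRNA also had 5 genes below 0.05. These were lower in TC (all genes: 14.2%). The count was 3 with median-of-ratios rescaling (all genes: 7.65%) and 4 with quantile normalization (all genes: 8.11%). GTPBP3, which modifies the wobble base of tRNAs, was at 18.4, 18.7 and 16.7 TPM in TC and at 36.1, 31.3 and 34.6 TPM in TM. This was the largest difference of the 5 lists, -0.89 (SE 0.15, limma adjusted p = 0.0658), with the groups far apart. METTL17, needed for the small ribosomal subunit, was at 58.1, 48.4 and 59.8 TPM in TC and at 83.6, 99.7 and 92.4 TPM in TM (log2 difference -0.72, SE 0.14, limma adjusted p = 0.0844). PUS1, a pseudouridine synthase, differed by -0.70 (limma adjusted p = 0.163), and TRMU and QTRT1 were the other genes of this group.

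In the list of 13 translation factors 1 gene was below 0.05, OXA1L (log2 difference -0.35, limma adjusted p = 0.205), which inserts the newly made proteins into the inner membrane. At that threshold 14.2% of all genes were lower in TC. Median-of-ratios rescaling and quantile normalization each left 0 genes of this list below it, beside 7.65% and 8.11% of all genes lower in TC. Of 4 tested nuclear regulators, PPRC1, a coactivator of respiratory genes, was at 24.7, 26.4 and 32.0 TPM in TC and at 54.1, 53.0 and 41.3 TPM in TM (log2 difference -0.81, SE 0.17, limma adjusted p = 0.0844). The transcription factor NRF1 was at 6.91, 5.64 and 5.32 TPM in TC and at 9.63, 9.37 and 9.16 TPM in TM (log2 difference -0.58, SE 0.20, limma adjusted p = 0.197). Both genes had groups that did not overlap, with TC lower, as did 18.9% of all tested genes. They were named for an unadjusted p-value under 0.05 (all genes lower: 14.2%). Both stayed below it after median-of-ratios rescaling (all genes: 7.65%) and quantile normalization (all genes: 8.11%). The groups overlapped in the other tested regulators, GABPA (log2 difference 0.25, limma adjusted p = 0.733) and ESRRA (-0.24, limma adjusted p = 0.492).

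Host markers were set beside the mitochondrial share in the margin. The share of TPM from the 37 genes was 9.23% in TM replicate 1, 10.5% in TM replicate 2 and 11.1% in TM replicate 3. The last of these had as little muscle marker RNA as the TC samples and the highest share of the 6. ACTA1, skeletal muscle actin, was at 53.7, 164.6 and 0.87 TPM in these samples and at 1.86, 2.76 and 2.87 TPM in TC. Without TM replicates 1 and 2 the median difference of the mRNA genes was -0.68. That fit has 1 margin sample, and no value over all genes is given beside it. Cytosolic ribosomal protein genes took 24.4%, 26.8% and 26.2% of TPM in TC and 20.4%, 19.8% and 23.9% in TM, the reverse order, and because shares of one total are bound to each other, their part in the mitochondrial shares was not tested. Nor was the part of mouse reads tested, since no step that separates mouse from human reads was stated.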

How the data were processed

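RNA-seq of 3 TC and 3 TM samples, grouped by their titles, was available as a matrix of TPM per gene, deposited by the authors. The methods of the study name SeqPrep and Sickle for trimming, HISAT2 for alignment (to hg38 in the submitters' processing notes), StringTie for assembly and RSEM for quantification. The annotation release was not given in the sources used here, and 37 of 37 members were found in GENCODE v29 on GRCh38, from which positions and sequences were taken. There were 0 further columns of values. The matrix also held 259 loci assembled outside the annotation, which were left out of the fits.

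TPM keeps no read counts, so the depth is unknown and the DESeq2 test of the study could not be run. Genes that reached 1 TPM in 3 samples or more were tested on log2(TPM + 1) with limma 3.58.1 in R 4.3.3 (linear model without covariates, empirical Bayes with a mean-variance trend, two-sided, Benjamini-Hochberg over 13861 genes). The pseudocount of 1 hardly affects the abundant mitochondrial mRNA and rRNA genes, but it affects nuclear genes of low level. With a pseudocount of 0.1 the difference of PTCD1 was -0.719 in place of -0.595, and that of NRF1 was -0.656 in place of -0.585. Sums, shares and ratios were described without tests. Nothing in the labels says that samples share an animal or a culture, and p-values measure the spread between these samples. The study separated core and margin regions of tumors and names 3 mice per group, so TC and TM samples may be pairs from the same tumors. The main fit takes no account of such pairs. With a block for the replicate number the smallest limma adjusted p-value of the members was 0.262.

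Alternatives were a pseudocount of 0.1, no filter, a minimum mean of 5 TPM, quantile normalization, median-of-ratios rescaling, TPM without mitochondrial genes, a block for the replicate number, limma without trend or in robust form, and leaving out each sample or TM replicates 1 and 2. Named were all 37 members, 8 nuclear genes whatever their values (POLRMT, TFAM, TFB2M, LRPPRC, SLIRP, MTPAP, ELAC2 and PNPT1), nuclear list members with an unadjusted p-value under 0.05 (with values for the 3 largest in each direction per list), and nuclear copies with a mean of at least 10 TPM. Copies were aligned with Biopython 1.88. The members, lists and ratios were chosen with earlier results of these data known.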

Additional observations from a re-analysis of the deposited data

How the results depend on the processing

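The depth behind TPM is unknown, and 3 samples per group limit what limma can call. The call of 0 mitochondrial and 0 nuclear list genes held in all 16 alternatives. The number of mRNA genes with an unadjusted p-value under 0.05 was 11, and it was 6 without a filter and 2 after median-of-ratios rescaling. Leaving out 1 sample at a time gave 5 to 11, with 5 each without TC replicate 2 or 3 and 7 without TM replicate 2. With the replicate number as a block it was 7. Deviations of same-numbered samples correlated at 0.21, -0.12 and -0.16 (Pearson, across genes), and not every sample correlated best with its own number. These deviations are taken from means of 3 samples, so they cannot decide whether same-numbered samples came from the same tumor. The median difference of the mRNA genes ran from -0.76 to -0.51 when samples were left out in turn, and that of the mitochondrial share from -4.08 to -2.71 percentage points. The rRNA genes and 5 nuclear genes named whatever their values changed sign in at least 1 alternative. MT-RNR2 was -0.082 after quantile normalization, ran from -0.152 (without TC replicate 1) to 0.232 with 1 sample left out (-0.024 without TM replicate 2) and was -0.048 without TM replicates 1 and 2. MT-RNR1 was 0.103 after median-of-ratios rescaling and ran from -0.338 to 0.312 (without TM replicate 3) with 1 sample left out, with 0.092 without TC replicate 2, and was -0.854 without TM replicates 1 and 2. TFAM was 0.134 and 0.137 after quantile normalization and median-of-ratios rescaling, ran from -0.344 to 0.162 (without TM replicate 1; 0.069 without TM replicate 2), and was 0.575 without both. MTPAP was 0.083 and 0.052 with these scalings, ran from -0.411 to 0.122 (without TC replicate 2; 0.086 without TM replicate 1), and was 0.496 without TM replicates 1 and 2. PNPT1 ran from -0.354 to 0.011 (without TC replicate 2). Without TM replicates 1 and 2, POLRMT was 0.083 and TFB2M 0.175. The causes were not tested, apart from the smaller number of samples where some were left out.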
